A study of Drosophila melanogaster with 4 samples.

Results

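Genes of the contractile and calcium-handling machinery of muscle, 4 in number, were followed in heads of Drosophila melanogaster fed gabapentin. They are Act79B and Act88F, which encode muscle actins, Mlc2, which encodes the regulatory light chain of muscle myosin, and Scp1, which encodes a sarcoplasmic calcium-binding protein. Every spot whose only gene symbol in the platform annotation is one of these names was taken, which gave 8 spots. Neighbouring rows hold the 2 spots of 1 cDNA clone, so the members are 4 clones, 1 per gene, out of 7558 clones with a single symbol for 6793 genes and 13824 clones in all.

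Oregon-R wild type males, unmated and 10 to 11 days old, spent 3 days either on normal food or on food with 16 mg/ml gabapentin, at 30 flies per vial, and RNA was taken from pools of frozen heads. Both conditions shared strain, sex and age. On each of 4 cDNA arrays with 2 colours, RNA of a gabapentin pool and of a normal food pool, a separate pair for each array, competed for the same spots. On arrays 1 and 2 the dye of the gabapentin pool was Cy5, and on the dye-swapped arrays 3 and 4 it was Cy3. A value is a log ratio between the 2 channels, taken here as log2, so it tells how the conditions compare and nothing of how abundant a transcript is.

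Muscle contracts when myosin heads on thick filaments pull on thin filaments built of actin. Light chains stiffen the neck of the myosin head, and phosphorylation of the regulatory one tunes the force. Calcium released from the sarcoplasmic reticulum switches the thin filament on, and soluble EF-hand proteins such as the sarcoplasmic calcium-binding proteins of invertebrates bind calcium in the cytosol. In the fly, Act88F is known as the actin of the indirect flight muscles of the thorax and Act79B as an actin of tubular muscles. The head holds muscles of its own, among them those that move the mouthparts and antennae. Gabapentin is an anticonvulsant and analgesic that in mammals binds an auxiliary subunit of voltage-gated calcium channels.

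The sign of the ratios could not be settled for arrays 3 and 4. The labels do not state whether their values are Cy5 over Cy3, as the channel order would have it, or were already turned to gabapentin over normal food. Arrays 1 and 2 run the same way as each other, and so do arrays 3 and 4. The values below are therefore given as deposited, by array, and both readings of the dye-swapped arrays are given after them. Array medians ranged from 0.52 to 1.14 log2 units rather than lying at 0, so each value is given relative to the median of all clones on its array unless stated otherwise. Between 668 and 2170 clones per array had a value after the authors' spot filter. The 4 genes were selected on their centred log2 ratios on these same arrays, so their values are a description without a test. With 3 arrays per gene, precision is low.

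Act79B lay near the median on array 2 and above it on both dye-swapped arrays. It had 0.10 on array 2, 0.84 on array 3 and 0.70 on array 4, and no value on array 1. The dye-swapped arrays differed by 0.15 log2 units, less than the median difference of 0.36 between these arrays over 235 clones. In multiples of the array median, the ratio was 1.08 on array 2, 1.80 on array 3 and 1.62 on array 4. Of all clones with a value, 63.7% lay lower on array 2, 97.2% on array 3 and 98.4% on array 4, where 10 clones lay higher. Its arrays of opposite orientation did not overlap.

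Act88F had values of -0.0023 on array 1, 0.53 on array 2 and 0.83 on array 3, and none on array 4. It was at the median on array 1, where 49.5% of clones lay lower, and in the upper tail on arrays 2 and 3, with 95.8% and 96.9% lower. Arrays 1 and 2, of the same orientation, differed by 0.53, more than the 0.30 between array 2 and the dye-swapped array 3. For comparison, the median difference between arrays 1 and 2 was 0.25 over 1096 clones, and 176 of these differed by more than Act88F did. The values of the actins were alike on array 3, where they differed by 0.012, but on array 2 Act79B lay 0.42 below Act88F. Whether transcripts of one actin gene also hybridised to the clone of another was not tested.

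Mlc2, the thick filament member, stayed close to the median wherever it was measured. It had 0.10 on array 1, 0.096 on array 2 and 0.13 on array 3, and no value on array 4. The SD of these 3 values, 0.016, is smaller than the difference between its own spots on any of the arrays. On array 3 the spots of Mlc2 had -0.34 and 0.59, a difference of 0.94, and 97.3% of clones had spots that agreed better there. The array 3 value of Mlc2 is thus the mean of a spot below and a spot above the median, whereas its spots differed by 0.096 on array 1 and 0.049 on array 2.

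Scp1, the calcium-binding member, moved furthest. It had -1.84 on array 1, -0.34 on array 2 and 0.69 on array 3, and no value on array 4. On array 1 it was among the lowest clones of all, with 13 of 1880 below it, and the deposited values of its spots, -0.99 and -0.41, were below 0 on an array where 97.3% of clones lay above 0. On array 2 it lay in the lower part of the distribution, with 19.9% of clones lower, and on array 3 in the upper tail, with 93.7% lower. Relative to the median, the ratio was 3.58-fold lower on array 1, 1.27-fold lower on array 2 and 1.61-fold higher on array 3.

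**Figure D1:**
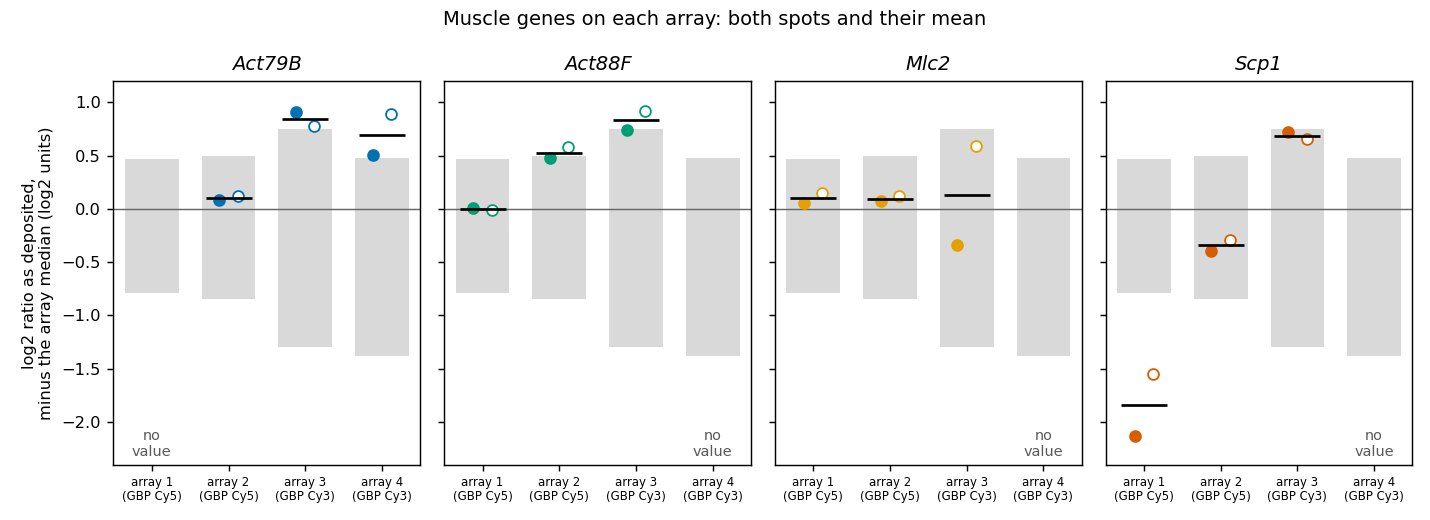
Centred log2 ratio as deposited (y axis) of each gene on each array (x axis, with the dye of gabapentin, GBP). Filled and open points are the first and second spot, black bars their mean, and grey boxes hold the middle 90% of all clones of the array. Scp1 lies below the box on array 1 at -1.84 and within it on array 3 at 0.69, and the spots of Mlc2 part on array 3.

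The low value of Scp1 on array 1 was seen on both of its spots, at -2.13 and -1.55 after centring. They differed by 0.58, against a median of 0.19 between the spots of a clone on array 1, and 87.0% of clones there agreed better. On arrays 2 and 3 the spots of Scp1 differed by 0.11 and 0.066. A broad running median along the row order was -0.043 at the row of Scp1 on array 1, and lay between -0.099 and 0.12 at the rows of the 4 genes on the arrays where each had a value. Immediate neighbours of the spots were not examined. Spots of the actins differed by 0.014 to 0.18 on arrays 1 to 3. Those of Act79B differed by 0.39 on array 4, where 80.8% of clones agreed better.

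**Figure D2:**
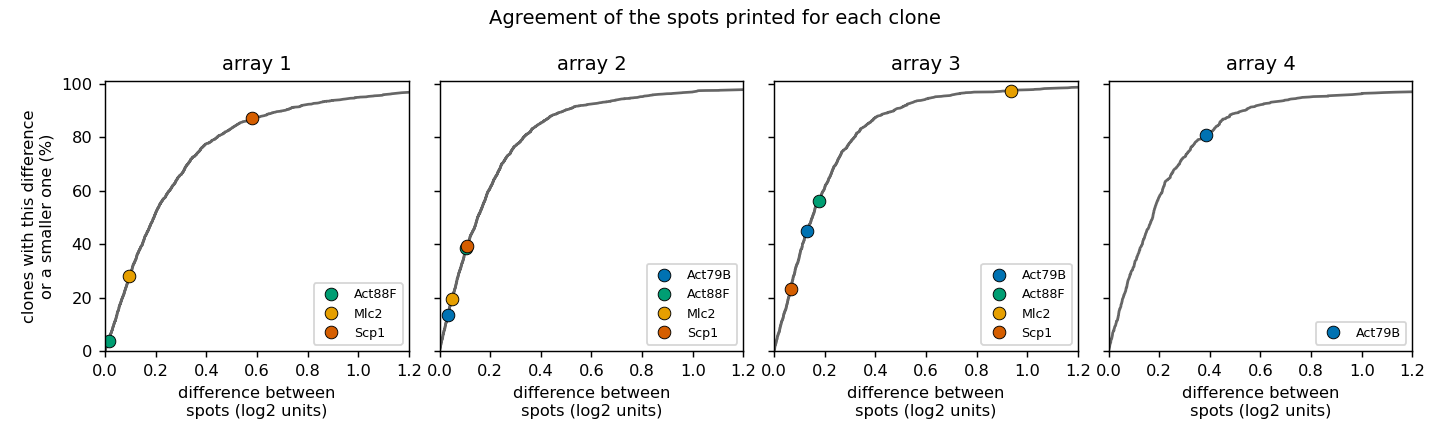
Share of clones (y axis, percent) whose spots differed by no more than the amount on the x axis (log2 units), per array, with the 4 genes as points on the curve. Mlc2 on array 3, at 0.94, Scp1 on array 1, at 0.58, and Act79B on array 4, at 0.39, lie in the upper part. The other points lie at or below 0.18.

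Arrays of the same dye orientation disagreed most for Scp1. Its values on arrays 1 and 2 differed 2.83-fold, and of the 1096 clones on both arrays 2 differed by more. Between array 1 and array 3 it differed by 2.53, the largest size among the 812 clones on both, and between arrays 2 and 3 by 1.03, with 43 of 1018 clones differing by more. Act88F differed by 0.84 between arrays 1 and 3, with 37 clones of 812 beyond it. Act79B differed by 0.74 between arrays 2 and 3 and by 0.59 between arrays 2 and 4, where 117 of 1018 and 62 of 317 clones lay beyond it. Mlc2 differed by 0.031 or less between any arrays that measured it.

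By dye orientation, dye-swapped arrays lay above arrays 1 and 2 for each of the 4 genes. The mean of the dye-swapped arrays minus the mean of arrays 1 and 2 was 1.78 for Scp1, 0.67 for Act79B, 0.57 for Act88F and 0.027 for Mlc2. Over the 854 clones measured on 3 or 4 arrays, the median of this difference was 0.054, with 90% of clones between -0.51 and 0.66. No clone exceeded Scp1, and 42 exceeded Act79B, 63 Act88F and 463 Mlc2. The dye-swapped arrays lay above the others without overlap for 4 of the 4 genes and for 35.6% of the 854 clones, and below them for 24.5%. Among clones on the same arrays as Act88F, Mlc2 and Scp1 the share above was 42.6% of 578, and among those on the arrays of Act79B it was 32% of 25. The choice of the genes used this contrast, so the count is no support for a difference. Each gene had 1 array in one of the orientations, and for Mlc2 the difference is smaller than that between its spots.

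**Figure D3:**
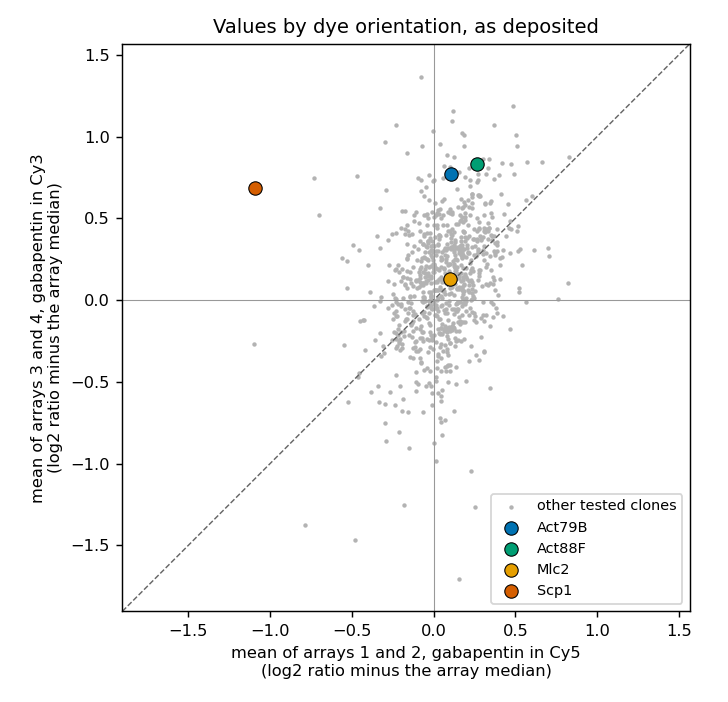
Mean centred log2 ratio of arrays 1 and 2 (x axis) against that of arrays 3 and 4 (y axis) for the 854 clones on at least 3 arrays, as deposited, with equal values on the dashed line. Scp1 stands at -1.09 and 0.69, farther above the line than any other clone, Act79B and Act88F lie above it, and Mlc2 lies on it.

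Between the genes, the spread within an array depended on the array. On array 1, Act88F lay 1.84 log2 units above Scp1, and Mlc2 1.95 above it. On array 2, Act88F was 0.87 above Scp1, while Act79B was 0.45 and Mlc2 0.44 above it. On array 3, Scp1 lay 0.16 below Act79B, 0.15 below Act88F and 0.56 above Mlc2. The 4 genes did not share 1 pattern over the arrays that measured them.

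If the dye-swapped columns hold Cy5 over Cy3 as well, turning their sign gives gabapentin over normal food. Scp1 was then below the median on all 3 arrays, with a mean of -0.96 ± 0.25 (SE moderated over all clones by limma, n = 3 arrays), a 1.94-fold difference, and the mean was -0.51 without array 1. Act79B had a mean of -0.48 ± 0.21 in this reading, above the median on array 2 and below it on arrays 3 and 4, and it was -0.77 without array 2 and -0.30 without array 3. Act88F had -0.10 ± 0.23 and Mlc2 0.024 ± 0.18, each with arrays on both sides of the median, and Act88F stood at 0.26 without array 3. In this reading Scp1 was thus the only one of the 4 genes with the same sign on all its arrays. The SD between arrays was 0.79 for Scp1, 0.51 for Act79B, 0.69 for Act88F and 0.13 for Mlc2. The moderated SE draws on the variance of all clones, so it does not show this spread. The signs of Scp1, below the median on arrays 1 and 2 and above it on the dye-swapped ones as deposited, were found for 6.79% of the 854 clones, and as the choice used this contrast nothing is read from the comparison.

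If the columns had already been turned before deposit, the picture differs. Act79B then lay 0.55 ± 0.17 above the median (SE, n = 3 arrays), a 1.46-fold difference, with all 3 arrays above it. Mlc2 had 0.11 ± 0.14, also above on all 3 arrays, but it stood at -0.083 with the first spot alone and at -0.056 after centring on the clones measured on all 4 arrays, so its side of the median is not settled. Act88F had 0.45 ± 0.17, with array 1 at the median and arrays 2 and 3 above it, and 0.26 without array 3. Scp1 had -0.50 ± 0.35, with an SD of 1.27 between its arrays, the widest of the 4 genes, and its mean was 0.17 without array 1 and -1.09 without array 3. Of all 854 clones, 25.8% lay above the median on every array with a value.

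**Figure D4:**
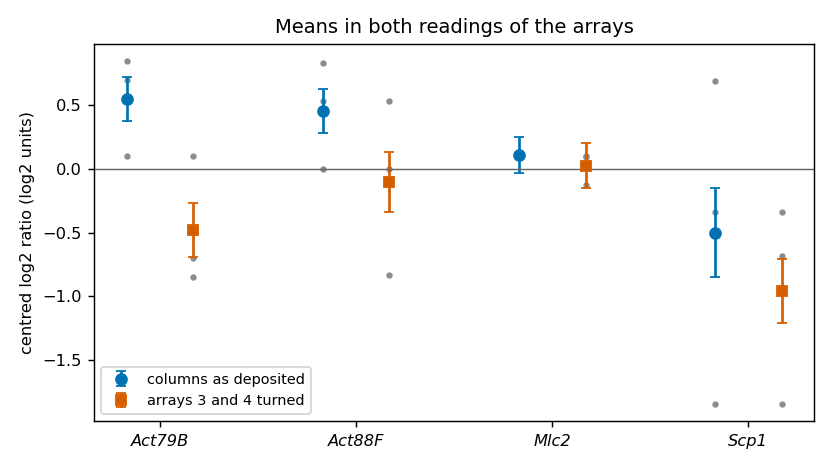
Mean centred log2 ratio (y axis) of each gene with columns as deposited (circles) and with arrays 3 and 4 turned (squares), with limma's SE as bars and arrays as grey dots. Act79B changes from 0.55 to -0.48 between the readings, while Scp1 is below 0 in both, at -0.50 and -0.96.

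Across all clones, no difference from the array medians was called in either reading. limma called 0 of 854 clones at a Benjamini-Hochberg adjusted p under 0.05 with the columns as deposited and 0 of 854 with the dye-swapped arrays turned, a background of 0% in both. At an unadjusted limma p under 0.05 there were 130 clones as deposited, 107 with a mean above 0 and 23 below. With arrays turned there were 19, of which 6 lay above 0 and 13 below. Among the 4 genes 0 were called in either reading. The median of the 854 clones was 0.089 with columns as deposited and -0.0048 with arrays turned, beside 0.11 and 0.024 for Mlc2. Uncentred, the means of the genes as deposited were 1.25 for Act79B, 1.27 for Act88F, 0.93 for Mlc2 and 0.32 for Scp1, against a median of 0.91 over the 854 clones. Without centring, limma called 833 of the 854 clones as deposited, Act79B, Act88F and Mlc2 among them, and 0 with arrays turned. With centring, leaving out 1 array gave up to 13 calls, without array 1 as deposited. Act88F had nearly the same deposited value on its arrays, 1.14, 1.33 and 1.36, with an SD of 0.12 that rose to 0.42 once the array medians were subtracted. For Mlc2 the SD went the other way, from 0.30 to 0.016.

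The wider muscle machinery was barely measured. Of 33 further genes of thin filaments, thick filaments and Z discs, and muscle calcium and energy handling, 10 had a named clone and 2 a value. None of their 13 clones reached 3 arrays, so none was tested. Act87E, another muscle actin, had 0.52 on array 4 from 1 of its 2 clones, where Act79B had 0.70. Actn, the alpha-actinin that crosslinks actin in the Z disc, had -0.77 on array 2. Clones of Tm2 (tropomyosin), Mlc1 (the other myosin light chain), Prm (paramyosin), Zasp66 (a Z disc protein), the troponin C genes TpnC4, TpnC41C and TpnC73F, and RyR (the calcium release channel) were left without a value by the authors' spot filter, which does not show that they were not expressed.

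Of 7 listed genes of actin and myosin function outside muscle, 2 had a named clone, and both had a value. chic, which encodes the actin monomer-binding protein profilin, had 0.13, 0.27, -0.0095 and 0.034 on arrays 1 to 4. Its mean was 0.11 ± 0.12 as deposited (SE, n = 4 arrays, limma adjusted p = 0.687) and 0.094 ± 0.15 with arrays turned (limma adjusted p = 0.999). Its other clone had -0.064 on array 2. Mlc-c, a myosin light chain of nonmuscle cells, had -0.039 on array 1 and 0.066 on array 2. Of their 3 clones, 1 was tested, the chic clone on 4 arrays, and it was not called. On array 2 its 0.27 lay above the upper quartile of all clones, 0.19.

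Markers of other head cells were followed beside these values. Of 10 photoreceptor markers 6 had a value, among them trp (the light-activated cation channel), inaD (the scaffold of phototransduction) and chp (chaoptin). Their medians were 0.30, 0.75, 0.59 and 0.10 on arrays 1 to 4, over 5, 6, 6 and 3 clones. They were not uniform, as trpl had -0.25 on array 1 and inaC had 0.086 on array 3 and 0.013 on array 4. Values of the markers ranged from -0.25 to 0.59 on array 1 and from 0.44 to 0.93 on array 2. The markers ranged from 0.086 to 0.95 on array 3 and from 0.013 to 0.37 on array 4. On array 2 and array 3 they were above the median, as Act88F was, while on array 4 they were lower than Act79B. Gs2, the only glial marker of 3 with a value, had 0.084, 0.28, 0.67 and 0.18. Of 5 fat body markers 2 had a value, apolpp (the lipid carrier apolipophorin) and FASN1 (a fatty acid synthase). Their clones ranged from -0.20 to 0.081 on array 1, -1.06 to 0.17 on array 2, -0.011 to 0.77 on array 3 and -0.099 to 0.69 on array 4. On array 4 a clone of apolpp, at 0.69, lay beside Act79B at 0.70. Photoreceptor genes of the head were thus measured, while the only neuronal marker with a named clone, nSyb, and the haemocyte marker Hml had no value. The part of these cells in the values of the muscle genes was not tested, and in pooled heads fewer cells of a type and less RNA per cell cannot be told apart.

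Clones with the most similar values were found by the root mean square difference of centred ratios over the 3 arrays that measured each gene. For Act79B, among 103 named clones, these were Obp56d (an odorant-binding protein) at 0.19, Hdc (histidine decarboxylase, which makes histamine) at 0.26 and CG9396 at 0.26, against a median of 0.61. For Act88F, among 403 clones, they were CG6696 and Dp1 (a KH-domain nucleic acid-binding protein) at 0.11 each and lncRNA:CR32553 at 0.11, with a median of 0.54. For Mlc2 they were pAbp (the poly(A)-binding protein) at 0.015, Zyx (zyxin, of focal adhesions) at 0.037 and Tnpo (transportin, of nuclear import) at 0.045, with a median of 0.26.

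For Scp1, the nearest of 403 named clones was much farther away. This clone, vig (a component of the RNA interference complex), differed by 0.70, followed by hzg at 0.73 and CG4757 at 0.84, with a median of 1.21. vig had -1.32, -0.88 and -0.27 on arrays 1 to 3, low on arrays 1 and 2 as Scp1 was but without its high value on array 3. hzg had -0.97, 0.11 and -0.12 there, and CG4757 -0.44, -0.47 and 0.31. Among the same 403 clones, Act88F had rank 163 and Mlc2 rank 183 in likeness to Scp1. Scp1 was chosen on these same values, -1.84 on array 1 among them, so nothing is read from its distances.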

How the data were processed

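Log2 ratios of 4 two-colour cDNA arrays, deposited by the authors, were used. Per the series' design text, spots were quantified in GenePix Pro 6.0 and ratio-normalized in Acuity 4.0, after spots under 100 intensity units were ignored, and a further filter required saturated pixels under 3%, regression R2 between channels from 0.6, signal-to-noise from 3 and unflagged spots. The log base is inferred from the largest size, 9.11, which exceeds the 4.82 that a 16-bit scan allows in log10. With a channel at 100 units, it exceeds the 6.49 of natural logarithms but not the 9.36 of log2. Without that floor natural logarithms would allow 11.09, and normalized ratios are not strictly bound by such limits. The base thus remains an inference, and all fold values rest on it. Genome build and dye direction of the swapped columns are not given in the sources used here. All columns of values were used.

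Rows 2k-1 and 2k were averaged as 1 clone (all 7558 pairs with a symbol share it), and each array's median over its clones was subtracted. Symbols came from the platform annotation, with 15116 spots having 1 symbol, 102 several and 12430 none. The 4 symbols are unchanged in RefSeq (assembly Release 6 plus ISO1 MT), in which 14894 of the 15116 spots were found by Entrez ID. Clones on at least 3 arrays were fitted with limma 3.58.1 in R 4.3.3 (intercept, eBayes, Benjamini-Hochberg, threshold 0.05), once as deposited and once with arrays 3 and 4 turned. The fit was also run on simulated data with independent normal noise and no array or dye effect. That run does not show how the fit handles disagreement between real arrays. A clone on 3 arrays is fitted on these, with no imputation. Tables and figures used Python 3.11.15, pandas 2.3.3, numpy 2.4.6 and matplotlib 3.10.9. Genes named beside the 4 members are listed muscle, nonmuscle and marker genes with a value on at least 3 arrays, the 3 clones closest to each member, and, chosen after their values were seen, listed genes with fewer values. Members and lists were chosen with earlier results of these data known. Alternatives changed the centring, spread, spots, clone filter and variance prior and left out each array.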

Additional observations from a re-analysis of the deposited data

Results flagged for a closer look

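Scp1 was singled out because its arrays of opposite dye orientation lay on opposite sides of the array median as deposited, with -1.84 and -0.34 on arrays 1 and 2 and 0.69 on array 3. The difference between the orientations was 1.78 log2 units, and it was not tested. The same signs were found for 6.79% of the 854 clones on at least 3 arrays. With 3 arrays per gene, none of the 4 genes could be examined for a single array that stands apart. Of 6 other values examined over the 4 arrays, among them array medians and chic, 0 stood apart.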

How the results depend on the processing

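Without centring, 833 of the 854 clones were called as deposited, so a call there does not set a gene apart. Among them were Act79B, Act88F and Mlc2 and 1 listed clone. In the muscle and nonmuscle lists only a clone of chic, a nonmuscle gene, was tested. The means of Act79B, Act88F and Mlc2 became 1.25, 1.27 and 0.93 without centring, and 0.50 for Mlc2 with arrays turned. Signs changed there, to 0.32 for Scp1 as deposited and 0.37 for Act88F with arrays turned. As deposited, 6 clones were called after centring on clones with a value on all arrays, and 1 each with arrays scaled to 1 spread, with the first spot alone and with a robust variance prior. Leaving out 1 array gave 0 to 13 calls as deposited and 0 to 11 with arrays turned, with 13, 4 and 10 and then 2, 2 and 11 without array 1, 2 or 3. Scp1 was counted among the calls without array 3, where it keeps 2 of the values it was chosen on and turning changes nothing, so nothing is read from it. The mean of Mlc2 as deposited was -0.056 after centring on clones with a value on all arrays, 0.13 with the running median removed, -0.083 with the first spot alone and 0.28 with the second, and -0.11 with the second spot when turned, so its direction is not settled. With 1 array left out, means as deposited ranged from 0.40 to 0.77 for Act79B, 0.26 to 0.68 for Act88F, 0.10 to 0.12 for Mlc2 and -1.09 to 0.17 for Scp1, which was positive without array 1. With arrays turned they ranged from -0.77 to -0.30 for Act79B, -0.42 to 0.26 for Act88F, -0.015 to 0.10 for Mlc2 and -1.26 to -0.51 for Scp1. The cause of these moves was not tested, and the fits that leave 1 array out also rest on fewer arrays. Under the settings that kept all arrays and the centring of each, the means of Act79B, Act88F and Scp1 kept their sign in both readings. With arrays turned, however, Act88F came to -0.0023 as the median over arrays and to -0.011 with arrays scaled to 1 spread. Its side of the median in that reading is thus not settled. Both conditions share each array, so the ratio already holds the pair, no further pairing was made and there is 1 group of arrays.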
